A study of Homo sapiens with 3 samples.

Results

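The amino acid response run by the transcription factor ATF4 was examined in SAS cells, an established human squamous carcinoma line from the tongue, as 45 named genes out of 29402 genes measured. The members are a list of gene symbols with no threshold on their values, drawn up with earlier results of these data known: 25 ATF4 pathway genes and 20 genes of cytosolic aminoacyl-tRNA synthetases. Each had 1 probe set on the Affymetrix Human Gene 2.0 ST array, and all 45 passed the filter on low values, as did 20582 genes in all. Total RNA was hybridised to 3 arrays, 1 for each sample. Arrays 109 and 108 carry the label ARID1A siRNA. The labels leave unexplained what 109 and 108 stand for, and whether both samples received the same siRNA sequence. The mock array is the only control. All arrays come from the same cell line, siRNA was delivered with a lipid transfection reagent, and the labels give neither the siRNA sequences, nor the time after transfection, nor what the mock cells received. Nothing says that arrays 109 and 108 came from separate cultures, so their spread may be technical or may include a difference between siRNA sequences, and 3 arrays set the precision of all that follows.

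ATF4 is translated when kinases that sense amino acid shortage, misfolded protein, double-stranded RNA or heme deficiency phosphorylate the initiation factor eIF2. It then binds composite C/EBP-ATF elements and switches on genes for amino acid uptake, serine and asparagine synthesis, mitochondrial one-carbon metabolism and the charging of tRNAs. ATF4 output is set largely by translation of its mRNA, so its own transcript need not follow its targets. Many carcinoma lines use this response to sustain protein synthesis.

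The C/EBP-ATF element, searched as TGATGNAA on both strands, is shown because it is the known binding sequence of ATF4 dimers. Members were listed by gene symbol and not by a search for the element. The list is built around the ATF4 response, so the share of members with the element is not independent of it. RefSeq promoter windows (GRCh38.p14, from 250 bases before to 50 bases after the first listed start of each gene) were found for 37 of the 45 members. The element was in 9 of these 37 windows, or 24.3%. Over the whole table it was in 3.67% of 27305 genes, each taken at its first listed start. Among 14643 tested genes with a window it was in 2.21%. With every listed start counted, it was in 12 members, the further ones being SLC1A4, SLC1A5 and GARS, against 4.46% of genes. The stretches below run 5′ to 3′ along the gene, and capitals mark the element, which reads TTGCATCA where it lies on the opposite strand.
CHAC1, chr15:40953251-40953280, plus strand: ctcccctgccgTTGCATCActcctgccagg
ASNS, chr7:97872458-97872487, minus strand: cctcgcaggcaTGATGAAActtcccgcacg
SLC7A1, chr13:29595663-29595692, minus strand: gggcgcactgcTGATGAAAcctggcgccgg
AARS, chr16:70289675-70289704, minus strand: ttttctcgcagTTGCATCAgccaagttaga
CARS, chr11:3057407-3057436, minus strand: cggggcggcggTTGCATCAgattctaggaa
IARS, chr9:92293692-92293721, minus strand: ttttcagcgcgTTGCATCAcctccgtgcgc
MARS, chr12:57488053-57488082, plus strand: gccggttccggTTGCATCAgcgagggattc
NARS, chr18:57621804-57621833, minus strand: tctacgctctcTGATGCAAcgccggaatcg
TARS, chr5:33440956-33440985, plus strand: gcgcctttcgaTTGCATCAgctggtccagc
The element began 209 bases before the start in CHAC1, 187 in AARS and 68 in ASNS, and within 14 bases of the start, on either side, in the other 6. A match is a description of these letters and was not tied here to binding of any factor. No other motif was searched.

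The members lay higher on array 109 than on array 108 almost throughout, and the mock array mostly fell between them. The median log2 difference of array 109 from array 108 was 0.33 over the 45 members, against 0.00 over all genes tested. Of the 45 members, 37 were higher on array 109 than on array 108, or 82.2%, against 25.0% of all genes tested. QARS alone was lower, against 26.9% of all genes, and 7 members had exactly the same value on both. The mock value lay between a higher array 109 and a lower array 108 in 25 members, or 55.6%, against 7.31% of all genes. The reverse order was found in 1 member, QARS, against 5.44% of all genes. Exact ties are common in the deposited values: 48.2% of all genes had the same value on arrays 109 and 108, and 7 members, or 15.6%, had the same value on all 3 arrays, against 38.0% of all genes. Of the 38 members whose siRNA values differ, 37 were higher on array 109 and the median was 0.41. Of the 10664 genes whose siRNA values differ, 48.2% were higher on array 109, 4.23% by at least 1.5-fold, 14.1% had mock in between, and the median was -0.01. Quantile normalization, which breaks the ties, gave 36 members higher and 9 lower on array 109 than on array 108, with 53.3% of all genes higher. A comparison of 1 array with 1 array has no test. In bulk RNA, fewer cells that run the response and less RNA per cell cannot be told apart.

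Set against the mock array, which both comparisons share, the siRNA arrays differed in direction in the deposited values. On array 109 the median member difference was 0.13, with 30 members higher than mock, 3 lower and 12 identical, against 24.7%, 27.1% and 48.2% of all genes. On array 108 the median was -0.12, with 3 members higher than mock, 32 lower and 10 identical, against 24.4%, 27.9% and 47.7% of all genes. By size, 2 members were at least 1.5-fold higher than mock on array 109, against 1.15% of all genes, and 0 were lower by that much, against 1.73%. On array 108, 1 member was at least 1.5-fold lower than mock, against 1.49% of all genes, and 0 were higher, against 0.768%. Between the siRNA arrays, 6 members, or 13.3%, were at least 1.5-fold higher on array 109 than on array 108, against 2.19% of all genes, and 0 were lower by that much, against 1.51%. Genes with a mean above the negative control mean, 14282 in all, had 30.9% higher on array 109 than on array 108, 2.99% by at least 1.5-fold, and 9.83% with mock in between. With the siRNA arrays averaged, the median member difference from mock was 0.00. limma called 0 members and 0 of all genes at a false discovery rate of 5% (0.0%), with 1 member and 406 genes (1.97%) at an unadjusted p under 0.05, of which 194 (0.943%) were higher than mock and 212 (1.03%) lower.

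Between arrays 109 and 108, the exon and intron control probe sets differed in the same direction as the members, by 0.16 and 0.22 on average, and the poly(A) spike-in sets in the opposite direction, by -0.21. The mean of 1626 exon control sets differed from mock by 0.05 on array 109 and by -0.12 on array 108. The mean of 3575 intron control sets differed by 0.12 on array 109 and -0.10 on array 108. The mean of 39 poly(A) spike-in sets differed by -0.17 on array 109 and 0.05 on array 108. The 23 antigenomic background sets differed by -0.02 on array 109 and 0.01 on array 108. The negative control mean was log2 4.65 on array 109, 4.36 on array 108 and 4.43 on the mock array, while the 44629 main probe sets differed by 0.00 on average between arrays 109 and 108. With each array centred on its exon control sets, chosen after seeing the data, the median member difference between arrays 109 and 108 was 0.17, with 31 members higher and 14 lower, and 2 members at least 1.5-fold higher. With the intron control sets it was 0.12, with 28 higher and 17 lower, and again 2 at 1.5-fold. Of all genes, 12.2% were then higher on array 109 than on array 108 with the exon sets and 9.72% with the intron sets. By at least 1.5-fold, 1.17% of all genes were higher with the exon sets and 0.952% with the intron sets. Each centring shifts a whole array, and the median of all genes was then -0.16 with the exon sets and -0.22 with the intron sets. Against mock, exon centring gave member medians of 0.08 on array 109 and -0.0008 on array 108. Intron centring gave 0.01 and -0.02. The all-gene medians were -0.05 and 0.12 with the exon sets, and -0.12 and 0.10 with the intron sets. Mock lay between a higher array 109 and a lower array 108 in 18 members with either centring, against 25 as deposited. The share of all genes with mock in between is not given for these centrings. The part of these control sets in the result was not tested.

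**Figure D1:**
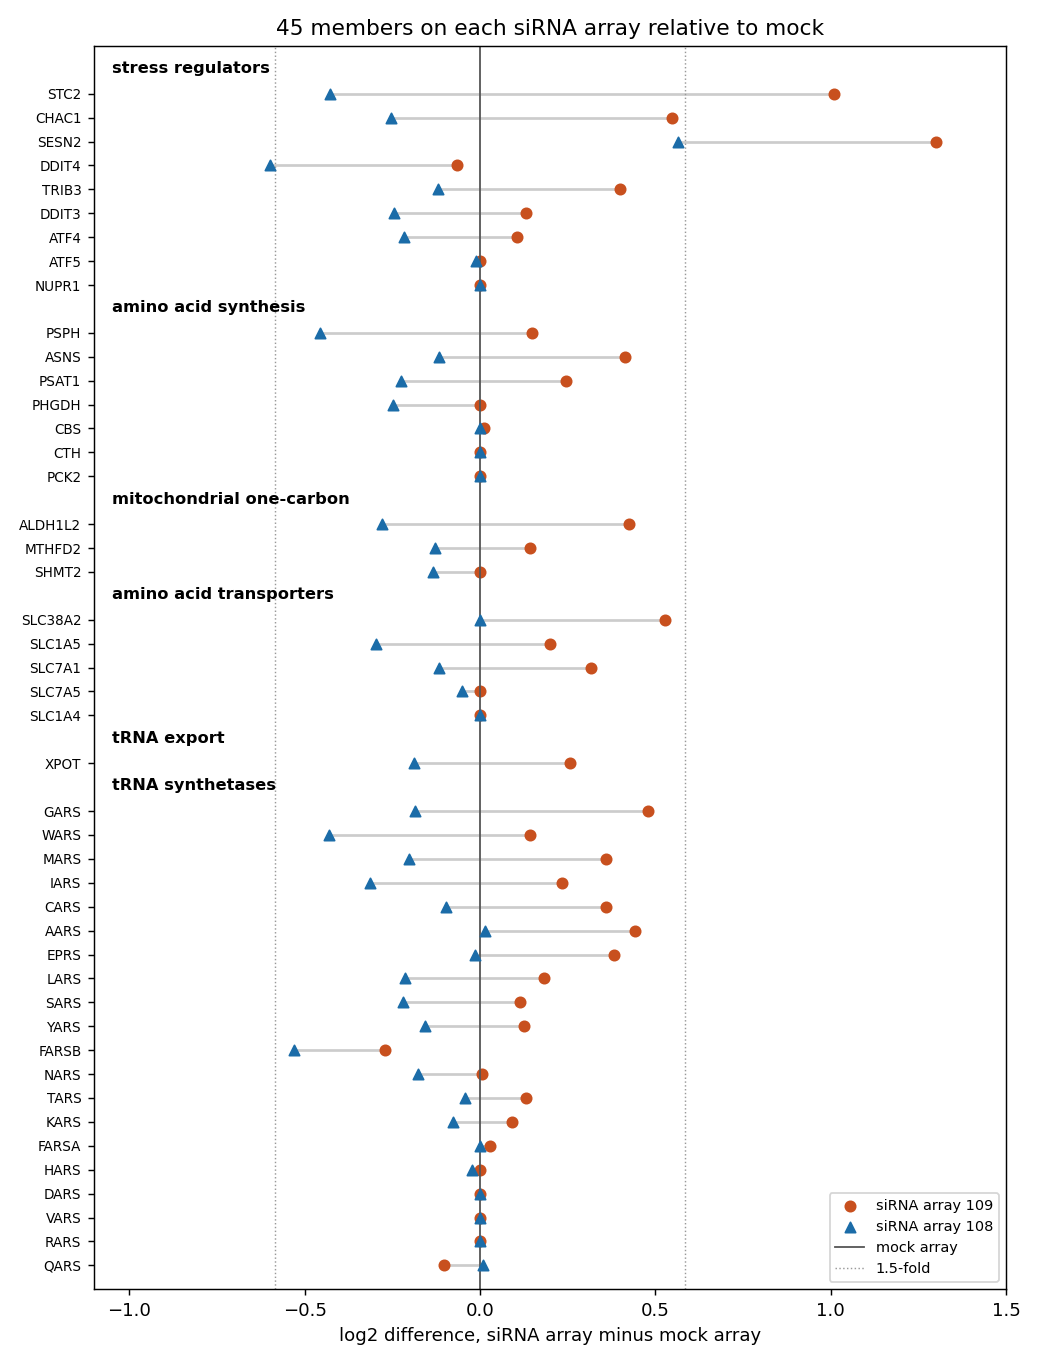
Log2 difference of each siRNA array from the mock array (x axis) for the 45 members, grouped by role and ordered within a role by the difference between the siRNA arrays. Circles are array 109, triangles array 108, the line at 0 is the mock array and dotted lines mark 1.5-fold. In 25 members the circle lies right of the line and the triangle left of it.

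Among the 9 stress regulators, 8 were higher on array 109 than on array 108 and none was lower, with a median difference of 0.52. ATF4 was at log2 8.98 on array 109, 8.65 on array 108 and 8.87 on the mock array, so mock lay between the siRNA arrays. ATF5, a related bZIP factor induced by the same pathway, was at 6.66 on array 109, 6.65 on array 108 and 6.66 on the mock array. Its siRNA values were within 0.02 of mock. DDIT3, which encodes the proapoptotic factor CHOP, was at 5.42 on array 109, 5.05 on array 108 and 5.29 on the mock array, again with mock in between. ATF4 and DDIT3 differed between arrays 109 and 108 by 0.32 and 0.37, below 1.5-fold, which is 0.58 on the log2 scale.

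STC2, a secreted glycoprotein hormone induced by ATF4, had the widest spread of any member. It was at log2 8.73 on array 109, 7.29 on array 108 and 7.72 on the mock array. Array 109 was high and array 108 low, with mock between them. Its level on array 109 was 2.71-fold above array 108, rank 18 among 20582 genes, and 2.01-fold above mock. CHAC1, which degrades glutathione and is a strong ATF4 target, was at 7.82 on array 109, 7.02 on array 108 and 7.27 on the mock array. Array 109 was 1.74-fold above array 108, with mock in between. TRIB3, a pseudokinase that feeds back on ATF4, was at 7.47 on array 109, 6.95 on array 108 and 7.07 on the mock array.

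SESN2, which holds mTORC1 in check under amino acid shortage and genotoxic stress, stood above mock on both siRNA arrays. It was at log2 7.99 on array 109, 7.25 on array 108 and 6.69 on the mock array. The siRNA and mock values did not overlap, as for 13.1% of all genes in this direction. Its mean difference from mock was 0.93 ± 0.52 (SD, n = 2), rank 32 of 20582, with unadjusted p = 0.030 and adjusted p = 1 in the limma fit across all genes. On array 109 it was 2.46-fold above mock and on array 108 1.48-fold. AARS was the other member above mock on both siRNA arrays, by 0.44 on array 109 and 0.02 on array 108.

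DDIT4, another brake on mTORC1, was below mock on both siRNA arrays. DDIT4 was at log2 7.46 on array 109, 6.93 on array 108 and 7.52 on the mock array. Array 108 was low, while array 109 lay 0.06 below mock. It was 1.51-fold lower on array 108 than on mock, just past the 1.5-fold limit, the largest such difference among the members. Next below the limit was FARSB, at -0.53. NUPR1, a stress-induced chromatin protein, had the same value, 4.81, on all arrays. The authors' deposited table flags SESN2 and STC2 as 2-fold higher on array 109 and flags no other member on either siRNA array.

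**Figure D2:**
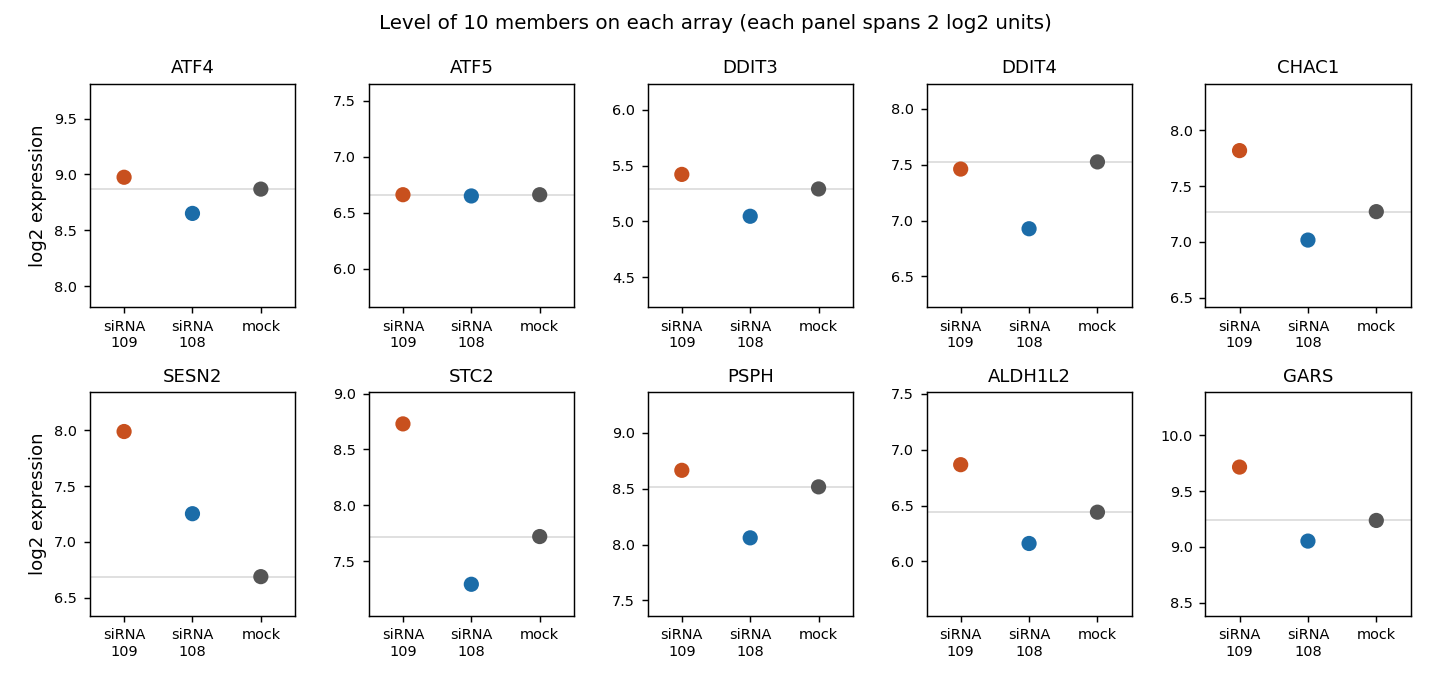
Log2 expression (y axis) of ATF4, ATF5, DDIT3 and the 7 members that differed by at least 1.5-fold in any pair of arrays, on array 109, array 108 and the mock array (x axis). Each panel spans 2 log2 units and the grey line is the mock level. Array 109 is above array 108 in each panel, by 0.01 in ATF5 and 1.44 in STC2, and SESN2 alone has both siRNA arrays above the line.

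Of the 7 genes of amino acid synthesis, 5 were higher on array 109 than on array 108 and none was lower, with a median difference of 0.25. PSPH, the last enzyme of serine synthesis, was at log2 8.66 on array 109, 8.06 on array 108 and 8.52 on the mock array. Array 108 was the low one, and array 109 was 1.52-fold above it. ASNS, asparagine synthetase and the textbook ATF4 target, was at 8.30 on array 109, 7.77 on array 108 and 7.89 on the mock array. Here array 109 stood apart and array 108 was within 0.12 of mock. PSAT1 and PHGDH, the other enzymes of serine synthesis, were 0.47 and 0.25 higher on array 109 than on array 108. PCK2, mitochondrial phosphoenolpyruvate carboxykinase, and CTH, the transsulfuration enzyme that makes cysteine, were identical throughout, and CTH was the only member with no array above the negative control mean. CBS, which acts before CTH, differed by 0.01.

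The mitochondrial one-carbon genes use serine to make formate and NADPH. ALDH1L2, which oxidises formyl-tetrahydrofolate in mitochondria, was at log2 6.87 on array 109, 6.16 on array 108 and 6.44 on the mock array. Array 109 was 1.63-fold above array 108 and mock lay in between. MTHFD2, whose expression is typical of proliferating and tumour cells, and SHMT2, which starts the pathway, were higher on array 109 than on array 108 by 0.27 and 0.13.

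Amino acid transporters had a median difference of 0.43 between arrays 109 and 108, with 4 of 5 higher on array 109 and none lower. SLC38A2, the SNAT2 carrier of small neutral amino acids, was at log2 11.36 on array 109, against 10.84 on array 108 and mock alike. Array 109 alone was high. SLC1A5, a glutamine carrier, and SLC7A1, an arginine and lysine carrier, were higher on array 109 than on array 108 by 0.50 and 0.43. SLC7A5, the LAT1 carrier of leucine, differed by 0.05, and SLC1A4, an alanine, serine and cysteine carrier, was identical on all arrays. XPOT, which exports tRNA from the nucleus, was at 9.56 on array 109, 9.12 on array 108 and 9.31 on the mock array, in the order seen for most members.

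The cytosolic tRNA synthetases, which load each tRNA with its amino acid, had a median difference of 0.27 between arrays 109 and 108. Of the 20 genes, 16 were higher on array 109, 1 was lower and 3 were identical on all arrays. Their median difference from mock was 0.12 on array 109 and -0.09 on array 108, and mock lay between the siRNA arrays in 12. GARS, the glycine enzyme, which also serves mitochondria, was at log2 9.71 on array 109, 9.05 on array 108 and 9.24 on the mock array. It was 1.58-fold higher on array 109 than on array 108, the only synthetase past 1.5-fold.

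Next in size came WARS, MARS and IARS, the tryptophan, methionine and isoleucine enzymes, at 0.57, 0.56 and 0.55 above array 108 on array 109. The other 10, AARS, CARS, EPRS, HARS, KARS, LARS, NARS, SARS, TARS and YARS, were higher on array 109 than on array 108 by 0.02 in HARS to 0.46 in CARS. The aspartate, arginine and valine enzymes DARS, RARS and VARS were identical on all arrays. Subunits of the phenylalanine enzyme did not go together. FARSB was at 9.45 on array 109, 9.19 on array 108 and 9.72 on the mock array, so both siRNA arrays were below mock, as for 16.2% of all genes. FARSA was within 0.03 of mock on both. QARS, the glutamine enzyme, was 0.11 lower on array 109 than on array 108.

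The 9 members with a C/EBP-ATF element at the first listed start, whose sequences are given above, were all higher on array 109 than on array 108. The differences ran from 0.17 to 0.80 with a median of 0.46. The 28 members with a window but no element there had a median of 0.30. Among these 28 are SLC1A4, SLC1A5 and GARS, which have the element at another listed start and differed by 0.00, 0.50 and 0.66. The grouping therefore rests on the choice of start. Over all tested genes with a window, the median was 0.00 with the element and without it. The groups differ in size and share arrays, so these medians are a description with no test.

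**Figure D3:**
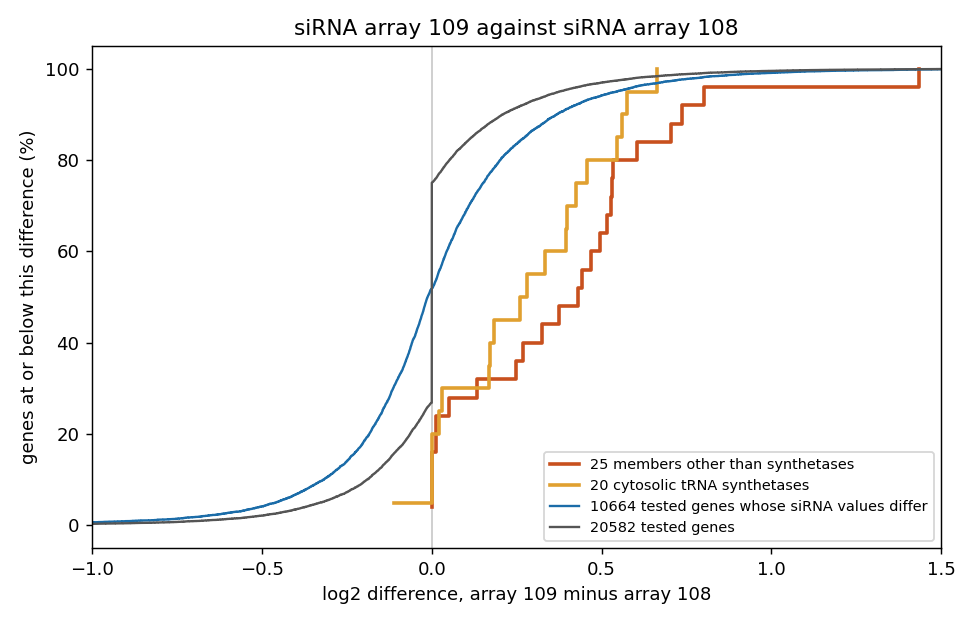
Cumulative share of genes (y axis, percent) at or below each log2 difference of array 109 from array 108 (x axis) for the 25 members other than synthetases, the 20 synthetases, the 10664 tested genes whose siRNA values differ and all 20582 tested genes. Up to a difference of 0.50 the member curves lie to the right of both curves of all genes, and the vertical step at 0 holds the genes with identical values.

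Related genes outside the set were not uniformly ordered the same way. The 17 mitochondrial tRNA synthetases, encoded by separate nuclear genes that are not among the usual ATF4 targets, had a median difference of 0.00 between arrays 109 and 108, with 5 higher, 3 lower and 9 identical. Against mock their medians were -0.07 on array 109 and -0.03 on array 108. CARS2, WARS2 and MARS2 differed from mock by -0.44, -0.38 and 0.03 on array 109 and by -0.48, -0.19 and -0.31 on array 108. The scaffold proteins of the multisynthetase complex lay at or below mock on both siRNA arrays. AIMP2, AIMP1 and EEF1E1 differed from mock by -0.16, -0.11 and 0.00 on array 109 and by -0.39, -0.38 and -0.11 on array 108. Between the siRNA arrays all 3 were ordered as most members were, higher on array 109 than on array 108. Their median difference was 0.22, near the 0.27 of the cytosolic synthetases. No gene of these lists passed the limma test (adjusted p = 1).

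Upstream of ATF4, the 16 genes for eIF2, its kinases, its exchange factor and its phosphatase had a median difference of 0.04 between arrays 109 and 108. None reached 1.5-fold in either direction. PPP1R15A (GADD34), the stress-induced phosphatase subunit that ATF4 signalling turns on, was at log2 8.12 on array 109, 7.69 on array 108 and 7.66 on the mock array. EIF2AK3, the PERK kinase of the endoplasmic reticulum, was at 6.19 on array 109, 6.64 on array 108 and 6.19 on the mock array, with array 108 high. EIF2S2, the beta subunit of eIF2, lay 0.19 above mock on array 109 and 0.25 below it on array 108. PPP1R15B, the constitutive phosphatase subunit, was above mock by 0.43 on array 109 and 0.30 on array 108.

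Of 20 further ATF4 targets and partners, 19 passed the filter, with a median difference of 0.12 between arrays 109 and 108, 12 higher and 2 lower. ATF3, a stress-induced repressor that ATF4 switches on, was at log2 5.64 on array 109, 5.58 on array 108 and 4.62 on the mock array. GADD45A, a growth arrest protein that p53 also induces, was at 9.68 on array 109, 9.48 on array 108 and 9.02 on the mock array. Both genes were above mock on each siRNA array and had unadjusted p = 0.00148 and 0.026 in the limma fit, with adjusted p = 1. SLC6A9, a glycine carrier, was at 7.84 on array 109 and 7.21 on array 108 and mock alike. VEGFA, the angiogenic growth factor, was 0.57 higher on array 109 than on array 108.

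**Figure D4:**
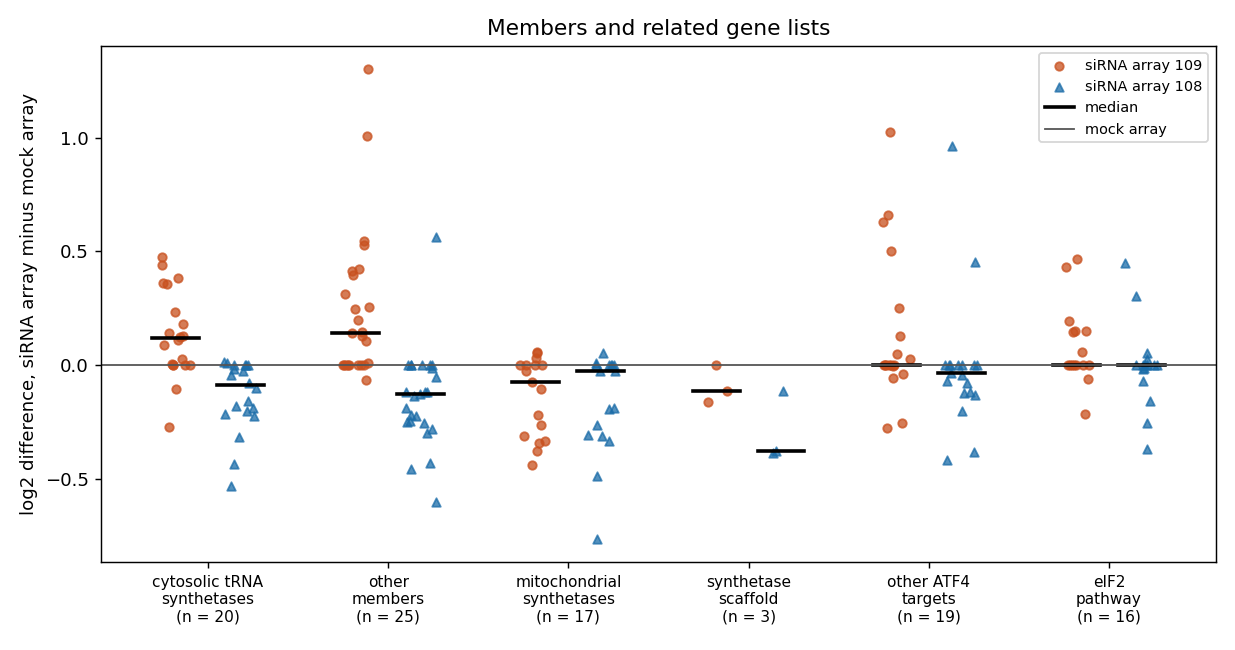
Log2 difference from the mock array (y axis) for each gene of 6 lists (x axis), with circles for array 109, triangles for array 108 and black bars for medians. The medians of the 20 cytosolic synthetases and of the 25 other members lie above the mock line on array 109 and below it on array 108. Those of the 17 mitochondrial synthetases and the 3 scaffold genes lie below it on both.

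ARID1A, the siRNA target, belongs to a SWI/SNF chromatin remodeller. Its level was log2 5.32 on array 109, 5.72 on array 108 and 6.79 on the mock array, in the direction of the labels. Of 12 squamous epithelial markers, 9 exceeded the mean of the negative controls on every array, EPCAM, CDH1, SFN and EGFR among them. The keratins KRT6A, KRT14 and KRT17 did not. The mean of the marker list was log2 7.58 on array 109, 7.81 on array 108 and 7.64 on the mock array. The median marker difference between arrays 109 and 108 was -0.21, with 4 higher and 8 lower. KRT5, a basal keratin, was 0.98 lower on array 109 than on array 108, and SFN, an epithelial 14-3-3 protein, 0.60 lower. Their part in the result was not tested. Of fibroblast markers 1 of 6 lay above the negative control mean on every array (COL1A1), of leukocyte markers 2 of 6, the lysosomal gene CD68 among them, and of measured endothelial markers 0 of 2. The means of these lists differed from mock by 0.08 or less on either siRNA array.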

How the data were processed

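RNA from 3 SAS cell arrays was used, 2 labelled ARID1A siRNA and 1 mock. Expression Console, the Affymetrix software, made the values, per the submitters' processing notes; the sources used here give neither its version nor its settings or genome build. For each probe set the authors deposited a log2 value, whose normalization method is not stated, and in tables per sample the linear intensity, which matched it to within 5.0e-05 after taking log2. Per the file headers these tables also give a ratio to mock, its log2 and a flag for 2-fold differences, of which only the flag is printed. Array depth has no count: precision rests on 3 arrays.

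Probe sets with 1 gene symbol (31134 of 53617) were averaged per gene; 29766 symbols were checked or updated through Entrez identifiers. Genes were dropped where the mean over arrays fell below log2 3.52, the 30th percentile. Each siRNA array was compared with mock, and array 109 with array 108, as log2 differences with no test. limma 3.58.1 (R 4.3.3, two-sided, Benjamini-Hochberg over all tested genes) compared the siRNA arrays with mock on the assumption that mock varies like them, which leaves 1 residual degree of freedom. Its prior (prior SD 0.152, 4.49 degrees of freedom) came from genes whose siRNA values differ, because 9918 tested genes were tied. On simulated data the fit called most genes given very large changes and almost none given 2-fold changes, so 0 calls does not show that genes did not differ. The C/EBP-ATF element was searched in RefSeq promoter windows. Members, lists and the motif were chosen with earlier results of these data known. Named are ATF4, ATF5, DDIT3, members past 1.5-fold in any pair of arrays, up to 3 further examples per role, members that complete a small count, and up to 4 genes of each other list by largest difference. Alternatives changed the scaling, filter, probe set, value source, fold, prior and arrays.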

Additional observations from a re-analysis of the deposited data

How the results depend on the processing

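The median member differences kept their direction with quantile normalization, median centring or cyclic loess, with 1 probe set per gene, from the linear tables and with both other filters, at 0.33 to 0.35 between arrays 109 and 108. The split of members higher and lower on array 109 than on array 108 was 36 to 9 with quantile normalization, 39 to 6 with cyclic loess and 44 to 1 with median centring, against 37 to 1 as deposited. The share of all genes higher on array 109 moved as well. It was 53.3% with quantile normalization, 62.0% with cyclic loess and 73.3% with median centring, against 25.0% as deposited. Members at least 1.5-fold lower than mock on array 108 numbered 0 with quantile normalization, with exon control centring and with intron control centring, against 1. With intron control centring the median difference between arrays 109 and 108 was 0.12, and with either control centring 2 members, not 6, were 1.5-fold apart. Of all genes, 1.17% were then at least 1.5-fold higher on array 109 with the exon sets and 0.952% with the intron sets. At 1.3-fold the counts were 5 lower on array 108 than mock, 10 higher on array 109 than mock and 21 higher on array 109 than array 108, and at 2-fold 0, 2 and 1. The shares of all genes at these folds are not given, so these counts have no background to be read against. Without 1 siRNA array the median difference of the siRNA mean from mock lay between -0.12 and 0.13, against 0.00, so its sign rests on which array is kept. limma called 0 members at a false discovery rate of 0.1 and with the untied genes alone. With ties included and a trend it also called 0 members, while over all genes it called 999 higher and 920 lower, against 0 and 0; with either control centring it called 1 gene higher and 1 lower, neither a member. limma without 1 siRNA array has no residual degrees of freedom and was not run. The 150 values of the 10 named members cover quantile normalization, median centring, cyclic loess, the highest probe set and the linear tables. All 150 moved by less than the prior SD of 0.152. The control centrings are not among these settings. They shift each difference of array 109 from array 108 by -0.16 (exon sets) or -0.22 (intron sets), which in size exceeds the prior SD. No paired analysis was possible because the titles give the groups no shared replicate numbers.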

Other observations

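Amino acid carriers and one-carbon genes that ATF4 is less known to control were listed for comparison. Of 10 other amino acid transporters 9 passed the filter, with a median difference of 0.00 between arrays 109 and 108. SLC7A6, a carrier that exchanges arginine for neutral amino acids, was at log2 7.96 on array 109, 7.58 on array 108 and 7.33 on the mock array. Both siRNA arrays lay above mock (limma adjusted p = 1). SLC7A8, the LAT2 carrier, was at 4.77 on array 109, 5.16 on array 108 and 4.77 on the mock array, so array 108 alone was high.

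The cytosolic one-carbon genes had a median difference of -0.09 between arrays 109 and 108. TYMS, thymidylate synthase of DNA precursor synthesis, was at log2 7.15 on array 109, 7.90 on array 108 and 8.39 on the mock array. Both siRNA arrays were below mock, array 109 the lower, with unadjusted p = 0.041 and adjusted p = 1 in the limma fit. SHMT1, the cytosolic partner of SHMT2, lay 0.14 below mock on array 109 and 0.05 below it on array 108.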
